A study of Bos taurus with 16 samples.

Results

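The region described here is a dense run of CpG positions on bovine chromosome 27, from position 6217254 to position 6225600 of ARS-UCD1.2 (8347 bases), that carries a gene annotated as RF00002, the Rfam family of 5.8S ribosomal RNA. Its members are all the positions that the deposited table of reduced representation bisulfite sequencing (RRBS) lists between these bounds. They number 1223 of 199395 positions in the table (0.613%) and 27.5% of the 4440 positions on chromosome 27. Both bounds are the outermost positions that the study listed as differentially methylated in this stretch on these same samples, so its ends were set by a list from these data, while every listed and unlisted position between them was used. The label ribosomal-like rests on RF00002, which the table gives at 31 positions, and the other 1192 positions carry no gene name.

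A cytobrush collected cells from the endometrium 4 to 8 h after postpartum Holstein-Friesian cows that came into heat on days 50 to 64 were inseminated. CON cows received the control diet without added methionine, and MET cows received rumen-protected methionine (RPM), a form of the amino acid shielded from breakdown in the rumen, daily from day 12 postpartum. Within each diet, P marks cows that a later ultrasound check found pregnant from that insemination and noP cows that it did not. A pregnancy lost before the check would count as noP. The groups were CON_P, CON_noP, MET_P and MET_noP with 4 libraries each. Each library held DNA of an unstated number of cows, since the study isolated more DNA samples than it made libraries, so the spread between libraries may not be the spread between single cows, and p-values measure the spread between these libraries alone. The samples are bulk brushings, in which a change in the mix of cells and a change within cells cannot be told apart.

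Ribosomal DNA is a family of repeated units, each of which encodes 18S, 5.8S and 28S ribosomal RNA in a single precursor read by RNA polymerase I, with the 5.8S gene between the other two. In mammalian cells only some of the units are transcribed, and CpG methylation is known as a mark of units that are not. Methionine is the source of S-adenosylmethionine, the methyl donor of DNA methyltransferases. RRBS cuts DNA at CCGG, keeps short fragments and reads, after bisulfite treatment, whether each cytosine was methylated. In a repeated locus the percentage at a position is an average over every copy whose reads were placed there, and how many copies this was, and which, was not given, so the number of copies contributing and the methylation of each copy cannot be told apart.

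The RefSeq annotation of a later build, ARS-UCD2.0, places the ribosomal genes LOC112444653 and RN18S1, the latter an 18S ribosomal RNA gene, next to each other on chromosome 27. They stand between the microRNA gene MIR2887-2 and LAP, which encodes lingual antimicrobial peptide, a beta-defensin. The identifier that the deposited table gives for RF00002 matched 0 RefSeq genes, and because the builds differ no position was carried from one to the other.

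The 1223 positions were crowded. The median distance from one to the next was 2 bases, and 581 of them (47.5%) lay directly beside the previous position, as the 2 cytosines of a CpG on opposite strands do. The first 19 positions stood apart, ahead of gaps of 1682 and 372 bases, and the remaining 1204 filled 6041 bases from position 6219560 on, 1 position per 5.02 bases. RF00002 covered positions 6222648 to 6222800 (153 bases), with 667 positions before it and 525 after it. Whether a position is exonic or in a spacer was not given beyond the RF00002 name.

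Methylation in the region was low to intermediate. The mean over the 16 libraries had a median of 19.2% over positions, with quartiles of 14.5% and 25.7% and a range from 3.94% to 79.8%. Between 10% and 30% methylation lay 958 positions (78.3%), where 17.8% of all positions in the table fell. A further 91 positions were below 10% and 18 were above 50%. The surroundings were different. The remaining positions of chromosome 27 averaged 68.5% to 72.1% per library, and the nearest positions beyond the run, at 6113351 and 6254838, averaged 98.4% and 98.0%. A further 10 positions just outside the bounds, 3 before and 7 after, averaged 6.22% to 40.9%. At the edges themselves, the first position of the region averaged 18.5% and the nearest outside it 19.7%, and the last averaged 26.7% and the nearest outside it 38.6%. The low methylation therefore ran a short way past both bounds.

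**Figure D1:**
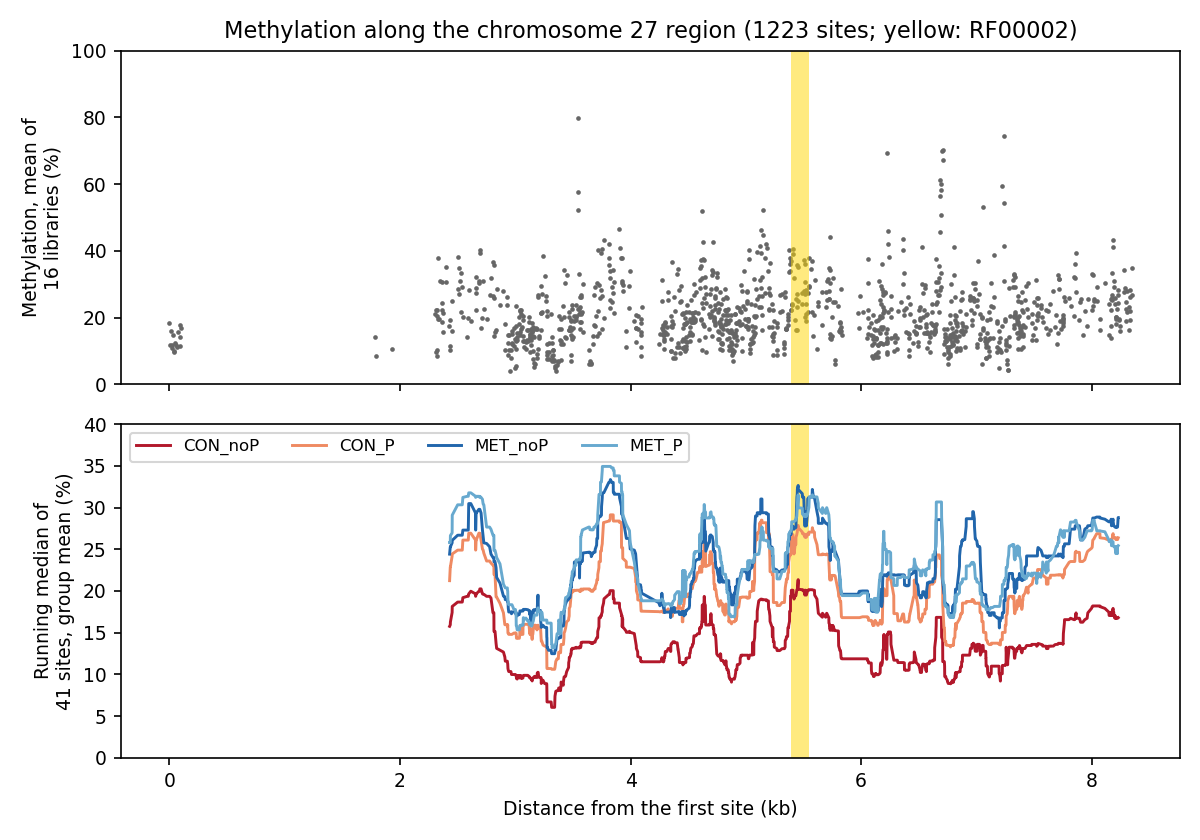
Methylation along the chromosome 27 region against the distance from its first position in kb. The upper panel shows the mean over 16 libraries at each of the 1223 positions, in percent, and the lower panel the running median of 41 positions of each group's mean over the 1204 positions after the large gaps, with RF00002 in yellow. Most positions lie between 10% and 30%, isolated ones reach 79.8%, and the CON_noP line runs below the others along nearly the whole region.

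The RF00002 gene was somewhat more methylated than what surrounds it, at a mean of 26.8% against 20.2% before and 21.4% after. None of its 31 positions was below 10% or above 50%, and they ranged from 16.2% to 40.5%. Its first position, 6222648, averaged 22.3% over the libraries and its last, 6222800, 29.4%. Counted in 1-kb windows from the first position, the means were 13.4% and 10.99% in the sparse first and second windows (16 and 3 positions). In the 7 windows after them, which held 54 to 252 positions each, the means ran from 19.4% to 24.8%. Among these 7 windows the level therefore changed little, while single positions within a window differed much more.

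Positions on adjacent bases were also taken in pairs from the first one on, each position in at most 1 pair, which gave 514 pairs. Across them the means correlated with r = 0.68, and the median difference was 4.21 percentage points. The positions of a pair share libraries, so they are not independent. Strand was not read, so a pair may also join cytosines of different CpGs. In 10 pairs the difference was above 20 percentage points, and in the most unequal pair the means were 69.4% and 21.6%.

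The 18 positions above 50% were not spread evenly. There were 5 before RF00002 and 13 after it, and 8 of the latter lay within 27 bases, from position 6223936 to position 6223962. The 12 positions in these 27 bases averaged 28.4% to 70.2%, whereas the 63 positions within 100 bases on either side had a median of 15.6% and a range from 6.02% to 41.2%. Averaged over the 12 positions, methylation was 42.9% ± 9.003 (SD, n = 4) in CON_noP, 51.7% ± 4.91 in CON_P, 53.4% ± 6.25 in MET_noP and 62.4% ± 4.79 in MET_P. The stretch was singled out after its values were seen, and these group values are given as a description.

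The most methylated position of all was 6220802, at 79.8%. It had 48.9%, 61.4%, 76.7% and 83.4% in the CON_noP libraries and 74.9%, 77.3%, 84.0% and 89.8% in CON_P. In MET_noP it had 65.3%, 83.5%, 87.7% and 92.0%, and in MET_P 80.9%, 86.0%, 91.7% and 93.3%. The position was thus mostly methylated in all libraries but the lowest of CON_noP, and the groups overlapped. Within 20 bases of it lay 16 positions, 3 of them above 50%, and position 6220808, a few bases on, averaged 22.7%. The next most methylated positions, 6224497 and 6223962, averaged 74.4% ± 7.20 (SD, n = 16) and 70.2% ± 9.19.

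At the other end, position 6220208 had the lowest mean and the smallest SD of the region, 3.94% ± 1.46 (SD, n = 16), with values from 1.89% to 6.98%. Positions 6220606 and 6224526 averaged 4.12% and 4.24%. Per the study, mean bisulfite conversion was just short of complete in every group. How much of such low values came from unconverted cytosines was not tested. The study discarded positions with a value of zero, so positions of the region without any methylation in a library would not be among those counted here.

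**Figure D2:**
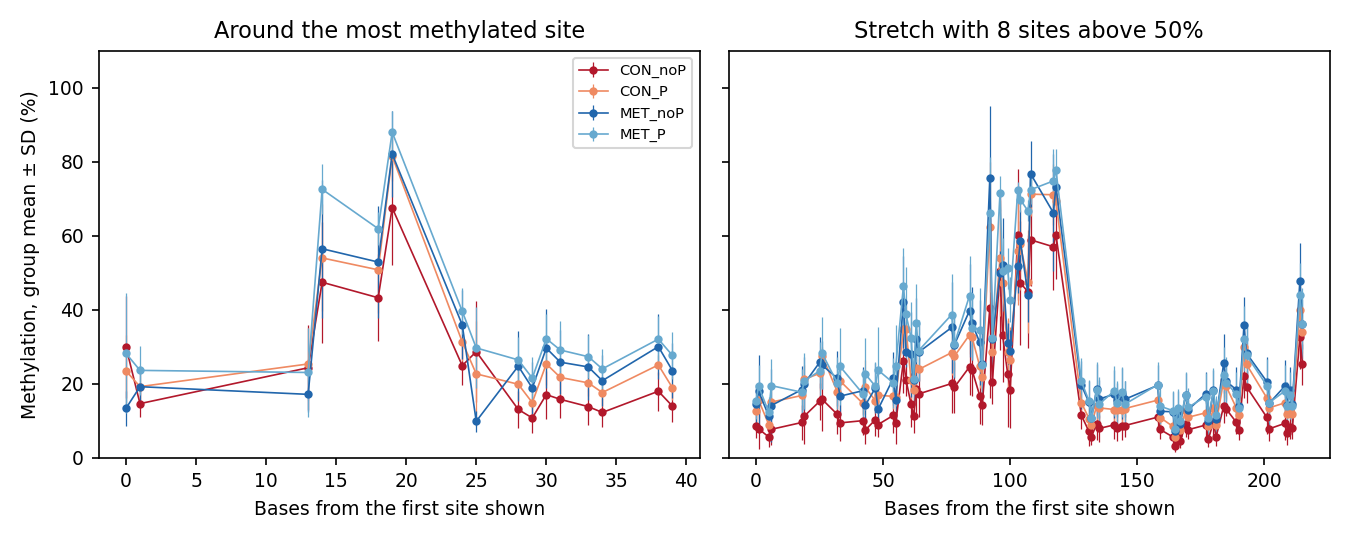
Group means with SD (n = 4 libraries per group, in percent) at the positions within 20 bases of the most methylated position (left) and at the 12 positions of the 27-base stretch with 100 bases on either side (right), against the distance in bases from the first position shown. Means pass from under 40% to over 50% and back within a few bases, and in both stretches they do so in every group.

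Libraries differed far more from each other in the region than the densely covered windows did. The mean over the 1223 positions was 9.89%, 12.2%, 15.5% and 20.9% in the CON_noP libraries, 14.6% ± 4.76 (SD, n = 4) together. In CON_P it was 17.4%, 19.2%, 22.6% and 25.04%, 21.04% ± 3.42 together. In MET_noP it was 14.02%, 25.5%, 25.8% and 29.5%, 23.7% ± 6.72 together, and in MET_P 18.4%, 20.1%, 25.5% and 32.4%, 24.1% ± 6.30 together. CON_noP held the 2 lowest libraries and MET_P the highest, 1 MET_noP library lay far below the other 3 of its group, and every pair of groups overlapped. The highest library was 3.27-fold above the lowest, whereas the mean over the other autosomal positions went only from 63.1% to 66.6%.

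**Figure D3:**
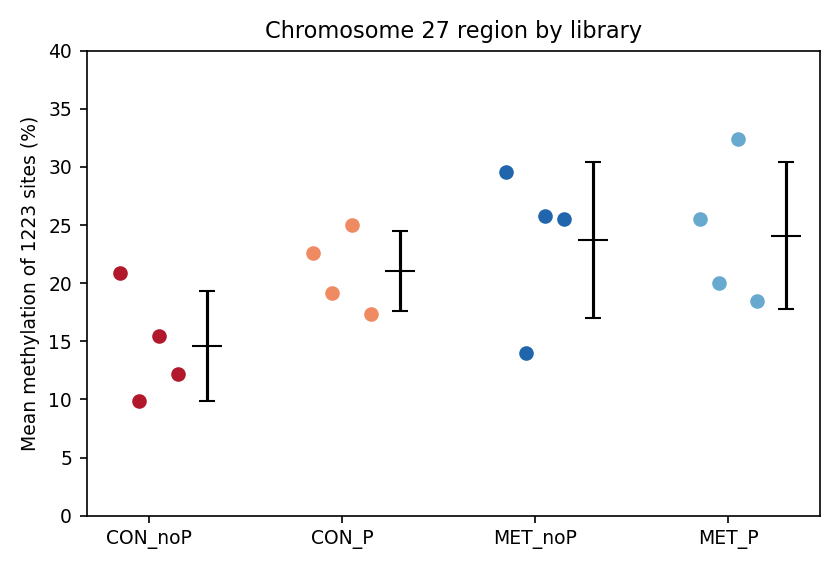
Mean methylation over the 1223 positions of the region in each library, in percent, by group, with the group mean and SD (n = 4) in black to the right of each set of points. The CON_noP libraries lie between 9.89% and 20.9%, and the other groups reach 25.04% to 32.4%.

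This order of libraries held along the region. The lowest CON_noP library had the lowest value of all 16 at 824 positions (67.4%), and the highest MET_P library had the highest at 706 (57.7%). The same pair was lowest and highest in the mean of each of the 7 windows that held over 20 positions. Across the libraries, the first principal component took 70.01% of the variance of the positions. The correlation of a position with the mean of the other positions had a median r of 0.891 and was above 0.5 at 1160 positions (94.8%). At 58799 other autosomal positions with a mean of 5% to 45%, the first component took 25.5%. There the median correlation with the mean of the others was 0.212, and 23.9% of positions were above 0.5. In the chromosome 18 island described below (158 positions), these were 57.9%, 0.843 and 95.6%. In the chromosome 2 island (146 positions) they were 46.3%, 0.753 and 81.5%. Strong shared movement was thus not particular to the region. These correlations are over the same 16 libraries and are a description.

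At 9 positions the correlation with the rest of the region was below 0, with 4 before RF00002, 5 after it and none inside it. The lowest, r = -0.61, was at position 6225263, where CON_noP had the highest group mean (32.1%) and MET_noP the lowest. Of the others, 6220783, 6220796 and 6220808 lay close to the most methylated position. Positions 6223940 and 6223947 lay inside the 27-base stretch, and 6223482, at 69.4%, belonged to the most unequal adjacent pair. At position 6220808 MET_noP had 7.14%, 8.76%, 9.62% and 13.96%, while the CON_noP libraries had 9.26%, 29.5%, 37.3% and 38.8%. The position with the largest SD of the region, 6223615, was also among the 9. It had 16.1%, 17.2%, 23.9% and 31.4% in MET_noP and 12.2%, 66.2%, 66.8% and 76.3% in MET_P. At both positions the MET_noP libraries were low and close together, and in each of the other groups 1 or 2 libraries stood far below the rest.

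Diet was compared over both outcomes, with diet labels permuted within each outcome. The 8 MET libraries averaged 23.9% ± 6.03 (SD, n = 8) and the 8 CON libraries 17.8% ± 5.15, a ratio of 1.34. Of the MET libraries 5 lay above the highest CON library, and 2 CON libraries lay below the lowest MET library. The difference was 6.08 percentage points, with an exact permutation p of 0.0486 and an adjusted p of 0.2 over the 7 comparisons made on the region mean, so it did not pass. When single libraries were left out, the exact permutation p lay between 0.0180 and 0.0996. All tests on library means were two-sided. The bounds of the region came from a list of outcome differences in these same libraries. The p-values of the region mean are therefore a description and not independent support.

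In value, the difference was larger between cows without pregnancy than between cows with it, although the interaction test given with the outcome comparisons did not pass. MET_noP was 9.12 percentage points (62.4% in relative terms) above CON_noP, with the MET_noP library higher in 14 of 16 pairs of libraries (exact permutation test, p = 0.0857, adjusted p = 0.2). MET_P exceeded CON_P by 3.05 percentage points and was higher in 11 of 16 pairs (exact permutation test, p = 0.457, adjusted p = 0.533). The smallest p that 4 libraries against 4 can give is 0.0286.

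By outcome, CON_P was 6.43 percentage points above CON_noP, a relative difference of 44.1%, and higher in 14 of 16 pairs (exact permutation test, p = 0.0857, adjusted p = 0.2). In the RPM-supplemented cows MET_P and MET_noP differed by 0.373 percentage points, with MET_P higher in 7 of 16 pairs (exact permutation test, p = 0.971). This difference turned negative, down to -2.86 percentage points, when the lowest MET_noP library or either of 2 MET_P libraries was left out. Over both diets P was 3.40 percentage points above noP (exact permutation test, p = 0.237, adjusted p = 0.405). The difference between the outcome contrasts of the diets, -6.06 percentage points, did not pass either (exact permutation test, p = 0.289, adjusted p = 0.405), so an effect of outcome that depends on diet was not shown. Comparisons that share a group are not independent, and both of the larger differences were measured against the same CON_noP libraries.

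Within RF00002, CON_noP was again lowest and CON_P next, while MET_noP stood above MET_P. Its mean was 20.3% ± 6.82 (SD, n = 4) in CON_noP, 27.1% ± 4.40 in CON_P, 30.3% ± 8.54 in MET_noP and 29.3% ± 6.51 in MET_P. CON_P was 6.77 percentage points above CON_noP and MET_noP 9.98 above CON_noP, each with an exact permutation p of 0.143 and an adjusted p of 0.286. MET_P exceeded CON_P by 2.24 percentage points (p = 0.629 in the exact permutation test), a difference that was -0.842 without the highest MET_P library. MET_P minus MET_noP was -0.966 percentage points (exact permutation test, p = 0.857), and its sign turned, up to 1.88, when the lowest MET_P library or either of 2 MET_noP libraries was left out. Over the other 1192 positions the corresponding differences were 6.43, 9.09, 3.08 and 0.407 percentage points.

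The group means kept their order along most of the region. CON_noP had the lowest of the 4 group means at 1191 positions (97.4%, against 31.5% of all positions). Since the region came from a list of differences in these same libraries, this contrast is a description. CON_P had a higher mean than CON_noP in 9 of 9 windows, by 2.79 to 7.91 percentage points, and MET_noP a higher mean than CON_noP in 9 of 9, by 4.96 to 10.6. MET_P was above CON_P in 8 of 9 windows and above MET_noP in 6 of 9, with differences from -5.04 to 1.61 percentage points in the latter. The windows share libraries, so they do not add up as evidence. None of the 36 window tests had an exact permutation p under 0.05, the lowest was 0.0571, and the lowest adjusted p was 0.257.

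**Figure D4:**
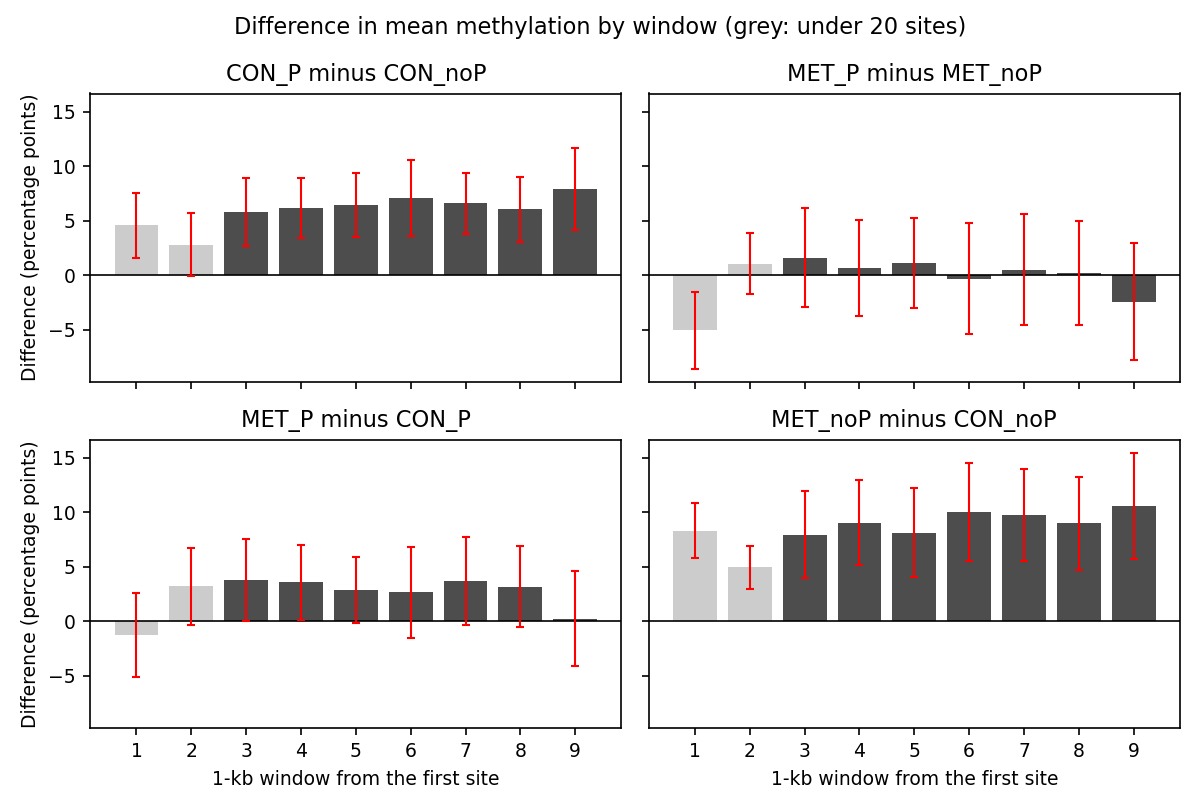
Difference in mean methylation, in percentage points, in each 1-kb window counted from the first position, for the 4 comparisons. Red bars are the standard error of the difference (n = 4 libraries per group), and grey columns are windows with under 20 positions. The columns of CON_P minus CON_noP and of MET_noP minus CON_noP are above 0 in all 9 windows, and those of MET_P minus MET_noP lie on both sides of 0.

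In percentage points the difference between diets was larger where methylation was higher, and in relative terms it was smaller. With the positions ranked by their mean and divided into 4 parts, MET minus CON was 4.06, 5.52, 6.64 and 8.12 percentage points from the least to the most methylated part. The ratios of MET to CON were 1.45, 1.39, 1.35 and 1.28.

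Single positions were tested with limma on M values, log2-transformed ratios of the methylated to the unmethylated share, with adjustment over all 199395 positions. At an adjusted p under 0.05, 0 of the 1223 positions passed in any of the 4 comparisons or for diet over both outcomes, and 0% of all positions did so in each. Each count at an unadjusted p under 0.05 was therefore read against the share of all positions that met the same rule. Neighbouring positions share libraries, so 1 high or low library moves many of them together. The region was bounded by positions that the study called different between groups of these same libraries. Shares and median differences above those of all positions are therefore partly built in, and they are given as a description.

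For CON_P against CON_noP, the mean was higher in CON_P at 1206 positions (98.6%, against 55.4% of all positions), and the median difference was 6.26 percentage points (0.525 over all positions). At an unadjusted p under 0.05, 27 positions were higher in CON_P (2.21%, against 2.53% of all) and 0 lower. The 4 CON_P libraries were all above the 4 CON_noP libraries at 38 positions (3.11%, against 1.22%). The count of 27 rested on single libraries and on the scale, and with it whether the share of the region was above or below that of the table. It was 322 without the highest CON_noP library (26.3%, against 3.05% of all positions higher) and 3 without the lowest (0.245%, against 2.39%). On untransformed percentages it was 168 (13.7%, against 2.65%), and with all 16 libraries in 1 model 45 (3.68%, against 3.25%). The position with the lowest p was 6224778, with 4.55%, 6.38%, 8.70% and 18.8% in CON_noP and 18.2%, 18.2%, 27.3% and 35.3% in CON_P. The ranges met, and the difference on the M scale was 1.66 ± 0.56 (SE; limma, adjusted p = 1).

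For MET_P against MET_noP, the mean was higher in MET_P at 718 positions (58.7%, against 51.8% of all), with a median difference of 0.667 percentage points (0.156 over all positions). At an unadjusted p under 0.05, 6 positions were higher (0.491%, against 2.57%) and 1 was lower, and at 5 positions all MET_P libraries were above all MET_noP libraries (0.409%, against 1.64%). These shares were below those of the whole table. Position 6220808 had the lowest p. Its MET_P libraries had 13.3%, 34.1%, 34.9% and 36.5%, of which the first lay within the MET_noP range of 7.14% to 13.96% (M difference 1.80 ± 0.51 SE; limma, adjusted p = 0.89).

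For MET_P against CON_P, the mean was higher in MET_P at 952 positions (77.8%, against 53.6%), with a median difference of 3.15 percentage points (0.355 over all positions). At an unadjusted p under 0.05, 14 were higher (1.14%, against 3.06%) and 0 lower, and 20 did not overlap with MET_P higher (1.64%, against 1.92%), no more than in the table as a whole. The lowest p was at position 6223943, inside the more methylated 27-base stretch. It had 43.6%, 50.7%, 54.9% and 55.7% in MET_P and 19.2%, 21.6%, 36.2% and 36.9% in CON_P. The groups did not overlap there (M difference 1.42 ± 0.46 SE; limma, adjusted p = 0.827).

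For MET_noP against CON_noP, the mean was higher in MET_noP at 1202 positions (98.3%, against 57.3%), with a median difference of 9.12 percentage points (0.708 over all positions). At an unadjusted p under 0.05, 141 positions were higher (11.5%, against 3.36% of all) and 2 lower, and 44 did not overlap with MET_noP higher (3.6%, against 1.85%). The 143 positions in either direction (11.7%, against 5.13% of all) became 794 without the lowest MET_noP library (64.9%, against 7.18%) and 544 without the highest CON_noP library (44.5%, against 6.51%). Without the CON_noP library at 12.2% they became 29 (2.37%, against 5.02%), and no library could be left out without moving the count by over 1.5-fold. Position 6220266 had the lowest p, with 4.76%, 6.81%, 7.97% and 9.69% in CON_noP and 19.5%, 20.8%, 20.8% and 26.9% in MET_noP. All MET_noP libraries were above all CON_noP libraries there (M difference 1.74 ± 0.41 SE; limma, adjusted p = 0.739).

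For diet over both outcomes, MET had the higher mean at 1196 positions (97.8%, against 57.4%), with a median difference of 6.01 percentage points (0.519 over all positions). At an unadjusted p under 0.05 limma gave 221 positions higher in MET (18.1%, against 3.84%) and 0 lower. This count was between 35 and 640 with 1 library left out. The lowest was without the highest MET_noP library (2.86%, against 3.27% of all positions) and the highest without the lowest MET_noP library (52.3%, against 4.31%).

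Finally, the region was set beside other low-methylated positions of the same libraries. The study named CpG islands on chromosomes 18 and 2 in its lists from these samples, and the table holds 158 and 146 positions of them. It describes its regions on chromosomes 27, 18 and 21 as rich in CpG islands and in repeats, with rRNA among the repeat classes. Whether the chromosome 18 island holds sequence like that of the region was not tested. Library means of the chromosome 18 island ran from 14.8% to 37.4% and went with those of the chromosome 27 region (r = 0.970, rho = 0.941, n = 16, permutation p = 1e-05, the smallest that 100000 resamples can give, adjusted p = 2.5e-05). Without the 2 libraries farthest from the median r was 0.952, and with group means subtracted it was 0.966. For the chromosome 2 island r was 0.926 and rho 0.891 (permutation p = 1e-05, adjusted p = 2.5e-05), with r = 0.920 without 2 libraries and r = 0.884 within groups. The order of libraries was nearly the same in the region and in these 2 islands. Like the region, both islands were taken from lists of positions called different between groups of these same libraries. Their p-values are therefore a description and not independent support. The study also named an island on chromosome 21. The 120 positions of the table within its listed span were highly methylated, with library means of 74.6% to 82.8%, and went less with the region (r = 0.436, permutation p = 0.0905; rho = 0.391, permutation p = 0.134; adjusted p = 0.109 and 0.161 over 6 sets of positions). Without 2 libraries r was 0.314, and within groups 0.369.

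The relation was looser with other positions. For the 58799 autosomal positions with a mean of 5% to 45%, outside the islands, r was 0.462 (permutation p = 0.0727, adjusted p = 0.0909) and rho 0.585 (permutation p = 0.0191, adjusted p = 0.0239). For all other autosomal positions r was 0.595 (permutation p = 0.0157, adjusted p = 0.0262) and rho 0.588 (permutation p = 0.0190, adjusted p = 0.0239), with r = 0.506 without 2 libraries and r = 0.423 within groups. With the 13 mitochondrial positions, whose library means were 4.25% to 7.38%, r was -0.059 (permutation p = 0.826). The measures share libraries and bisulfite treatment, and mean read numbers were unequal between the groups per the study. The part of depth, conversion or cell mix in the order of libraries was not tested.

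**Figure D5:**
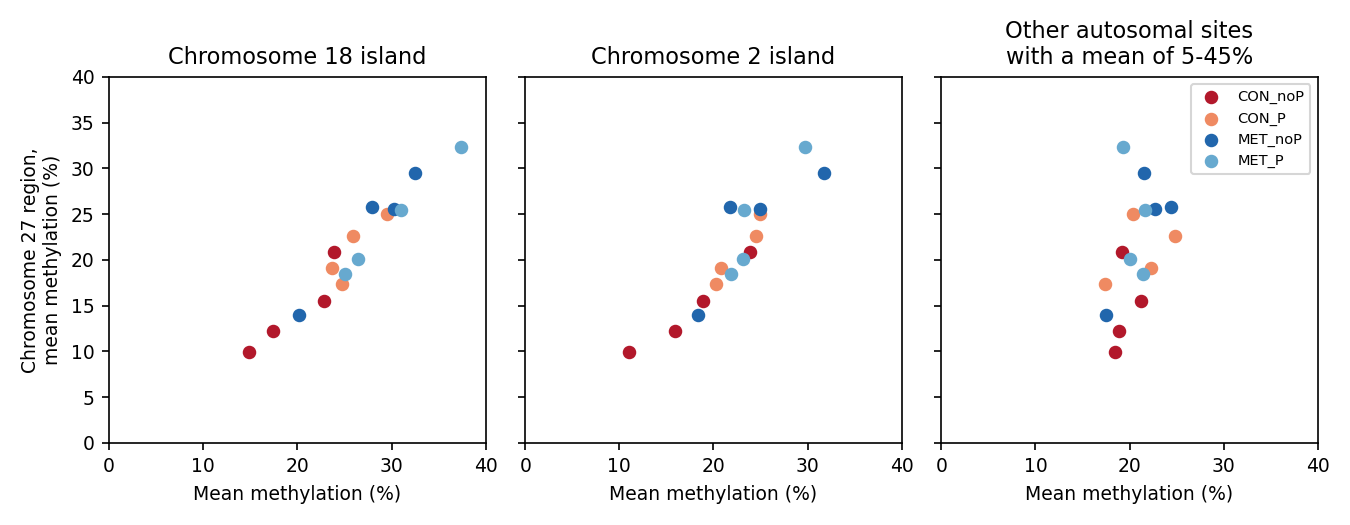
Mean methylation of the chromosome 27 region in each of 16 libraries, in percent, against the chromosome 18 island, the chromosome 2 island and the other autosomal positions with a mean of 5% to 45%. The points follow a line in the first panel (r = 0.970) and the second (r = 0.926), and in the third the x values span only 17.4% to 24.8% (r = 0.462).

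Group differences were of like size in these islands. MET_noP minus CON_noP was 7.93 percentage points in the chromosome 18 island and 6.75 in the chromosome 2 island, beside 9.12 in the region, and CON_P minus CON_noP was 6.21 and 5.18 beside 6.43. When each library's island mean was subtracted from its region mean, the 4 differences between groups were from -1.90 to 1.19 percentage points against the chromosome 18 island and from 0.0495 to 2.37 against the chromosome 2 island. Against the other positions with a mean of 5% to 45%, 7.01 percentage points of the difference between MET_noP and CON_noP remained (exact permutation test, p = 0.0857), and 5.36 of the difference between diets over both outcomes (exact permutation test, p = 0.0498). None of these 18 tests passed after adjustment, the lowest adjusted p being 0.6, so a difference particular to the chromosome 27 region was not shown. Both islands came from lists of positions called different between groups of these same libraries. Small remainders against them therefore cannot decide whether the difference is particular to the region.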

How the data were processed

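RRBS of endometrial DNA was made from MspI fragments of 40 to 200 bp. Per the labels and the study's methods, reads were trimmed with Trim Galore and aligned to ARS-UCD1.2 with Bismark, and runs of a library were merged. The authors deposited the percent methylation of each valid cytosine position in 16 libraries as SeqMonk gave it, not normalized between libraries, after positions with a value of zero were discarded. Read counts were not part of the analysis, so the depth behind each percentage is unknown (the study gives mean read numbers per group only, which were unequal and highest in MET_P), no interval can be given for a single percentage, and no coverage minimum could be tried. The logistic regression of the study needs counts and was replaced.

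Columns were assigned to groups by the group names in the header. The library numbers there are in no sample label, so libraries are named by group. No 2 libraries held identical values at more than 10.4% of positions. The region mean of each library was compared by two-sided exact permutation tests (70 splits, or 4900 arrangements within strata), adjusted by Benjamini-Hochberg over 7 comparisons. Positions were tested with limma 3.58.1 in R 4.3.3 on M = log2((percent + 1)/(100 - percent + 1)), fitted on the whole table, threshold 0.05. The fit was first run on simulated data with independent positions and a shift larger than at any position named here. That run cannot show whether differences of the size seen in the region would be found. Summaries used Python 3.11.15, matplotlib 3.10.9, scipy 1.17.1, pandas 2.3.3 and numpy 2.4.6. Windows were 1 kb.

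Positions named are the 3 lowest and 3 highest means, the lowest p in each of the 4 comparisons, the largest and smallest SD, and the first and last of the region and of RF00002. Positions in the 27-base stretch, near position 6220802, beside the bounds or below a correlation of 0 were named after their values were seen. The region, comparisons, lists and tests were chosen with earlier results of these data known. Alternatives were medians, an offset of 0.1, untransformed percentages, adjacent pairs averaged, equal weight of windows and positions with a mean of at least 10%. Others were 1 model for all libraries and each library left out. Blocks of consecutive library numbers, wider bounds, only positions before or after RF00002, the chromosome 21 island and the limma fit of diet over both outcomes were added after the data were seen. Sequence of the region was not used here.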

Additional observations from a re-analysis of the deposited data

Results flagged for a closer look

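In 4 positions named in the report, 1 library stood far from the other 3 of its group, by Dixon's test at the 95% level over 128 groups of values, of which chance flags about 1 in 20. At position 6220808 a MET_P library had 13.3% beside 34.1% to 36.5%. At position 6223615 a MET_P library had 12.2% beside 66.2% to 76.3%. At position 6224497 a CON_noP library had 55.8% beside 73.3% to 76.7%. At position 6224526 a MET_P library had 10.9% beside 3.37% to 4.53%.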

How the results depend on the processing

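Of 299 recomputed values, 248 were classed as the same, 43 counts moved by over 1.5-fold and 8 values reversed. For a difference, the same means only that its sign was kept, whatever its size. For a count it means a change of at most 1.5-fold. No comparison crossed the 0.05 threshold after adjustment under any alternative. Weighting windows equally turned MET_P minus MET_noP in the region to -0.288 percentage points. When single libraries were left out, the region mean differed by 4.86 to 8.52 percentage points for CON_P minus CON_noP, -2.86 to 2.31 for MET_P minus MET_noP, 0.290 to 4.94 for MET_P minus CON_P and 7.18 to 12.4 for MET_noP minus CON_noP. Over RF00002 the ranges were 4.09 to 9.65, -4.87 to 1.88, -0.842 to 4.20 and 7.13 to 13.9. For diet over both outcomes the range was 4.70 to 7.70, for outcome over both diets 1.79 to 4.44 and for the interaction -9.30 to -4.13. The count of positions at an unadjusted p under 0.05 ranged from 3 to 322, 5 to 18, 3 to 21 and 29 to 794 in the same 4 comparisons, and from 35 to 640 for diet. The region shares were 0.245% to 26.3%, 0.409% to 1.47%, 0.245% to 1.72% and 2.37% to 64.9%, and 2.86% to 52.3% for diet. The shares of all positions were 3.95% to 6.19%, 4.63% to 7.23%, 4.91% to 9.61% and 4.64% to 7.18%, and 4.97% to 7.3% for diet. For MET_P against MET_noP and against CON_P, the region stayed below the table throughout. On percentages without transformation the count was 168, 15, 40 and 474. That was 13.7%, 1.23%, 3.27% and 38.8% of the region beside 4.02%, 5.43%, 6.34% and 5.72% of all positions. The main shares were 2.21%, 0.572%, 1.14% and 11.7% beside 3.93%, 5.12%, 5.83% and 5.13%, so for CON_P against CON_noP the region passed from below the table to above it. With all libraries in 1 model it was 45 for CON_P against CON_noP (3.68%, against 4.99% of all), 9 for MET_P against CON_P (0.736%, against 5.94%) and 310 for MET_noP against CON_noP (25.3%, against 5.32%). With an offset of 0.1, 225 to 282 of the 199395 positions of the table passed after adjustment in each comparison, and 0 of the 1223 in the region. At so small a share of the table, a count of 0 does not set the region apart. The cause of these shifts was not tested.

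The columns carry library numbers that no sample label holds. Sets of consecutive numbers, each with 1 library of each group, were tried as a replicate block after the data were seen. Over all positions, 24 correlations between libraries of a set ran from -0.132 to 0.117, with 2 above 0.1. Within the region they ran from -0.266 to 0.450, with 15 of 24 above 0.1. Neither had every one above 0.1, so the numbers were not taken to pair the libraries. As a block they gave 17 positions for CON_P against CON_noP (1.39%, against 3.92% of all), 246 for MET_noP against CON_noP (20.1%, against 5.27%) and 390 for diet (31.9%, against 6.13%). In the region mean, all 8 pairs had MET above CON, with 0.899 to 13.4 percentage points between them (exact permutation test by sign flips, p = 0.00781, adjusted p = 0.0547), and 4 pairs cannot give a p under 0.125.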
